A study of Mus musculus with 28 samples.

Results

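The comparison described here sets 5 libraries of mice given C118 against 4 libraries of mice given vehicle, 9 of the 28 libraries of the series, chosen by their treatment labels. The tissue was dorsal hippocampus, and the mice were male C57Bl6 animals. Both groups underwent auditory fear conditioning, in which a tone is paired with an aversive shock, so conditioning is shared and treatment is the difference that the labels give. Vehicle is the solvent without drug, and C118 is a ligand of the glucocorticoid receptor known here by its code name alone. The Basal libraries (n = 4), from mice with neither conditioning nor treatment, are used as a level for reference. Conditioned mice given C108 (n = 5), a second ligand known by a code name, RU486 (n = 5) or Cort (n = 5) are used for direct comparisons with C118. RU486 (mifepristone) blocks the receptors of glucocorticoids and of progesterone, and Cort is the usual short form of corticosterone, the main glucocorticoid of mice. No dose, treatment time, dissection time or age is stated in the labels.

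The glucocorticoid receptor, encoded by Nr3c1, is a transcription factor that sits in the cytoplasm with heat shock chaperones until a steroid binds it. It then enters the nucleus, where it raises the transcription of targets such as Fkbp5, Tsc22d3 and Sgk1 and lowers that of others. Hippocampal neurons also hold the mineralocorticoid receptor, encoded by Nr3c2, which binds corticosterone more tightly. Stress hormone released around a learning event is known to act through both receptors on the consolidation of memory.

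Each library is named by the number in its title. Levels are given in CPM (counts per M, with M for 10 to the power of 6, after TMM adjustment of library size), in the order Vehicle 3, 16, 23 and 29, then C118 7, 13, 20, 33 and 38. Totals over genes ran from 18.62 to 19.14 M counts in the Vehicle libraries and from 17.33 to 20.3 M in the C118 libraries. Several libraries stood apart from their group. To follow this, each gene list was given a score per library, its members' log2 CPM, centred per gene over the 28 libraries and then averaged. Markers of thalamus, which lies beneath the dorsal hippocampus, scored 1.33 in Vehicle 3 and 2.42 in Vehicle 16 but -0.49 in both Vehicle 23 and Vehicle 29, and -0.71 to -0.12 in the 5 C118 libraries. Neocortex markers scored 0.77 in Vehicle 16, 0.36 in Vehicle 29 and -0.25 to -0.03 in C118. The summed level of the 17 thalamus markers tested ran from 252.3 to 1162 CPM in Vehicle and from 246.1 to 319 CPM in C118. Only Shox2 among them was at 0 in any library, in Vehicle 23 and C118 33. Markers of the hippocampal fields were present in all 9 libraries, but the dentate gyrus score of Vehicle 29 was -0.53 and the CA1 score of Vehicle 16 was -0.75. Interferon-stimulated genes scored 1.28 in C118 20 and 0.66 in C118 38, whereas the other 26 libraries of the series lay between -0.54 and 0.40. C118 38 also had the lowest score of the mitochondrially encoded genes, -1.03, and of the endothelial markers, -0.94. Libraries of other treatments were low on both lists too, C108 39 (-0.957 and -0.924) and Cort 36 (-0.865 and -0.549). Basal 27 was low on the mitochondrial list alone (-0.884, endothelial 0.488). The highest library number was 38 in C118 and 29 in Vehicle. In bulk tissue, fewer cells of a type and less RNA per cell cannot be told apart.

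**Figure D1:**
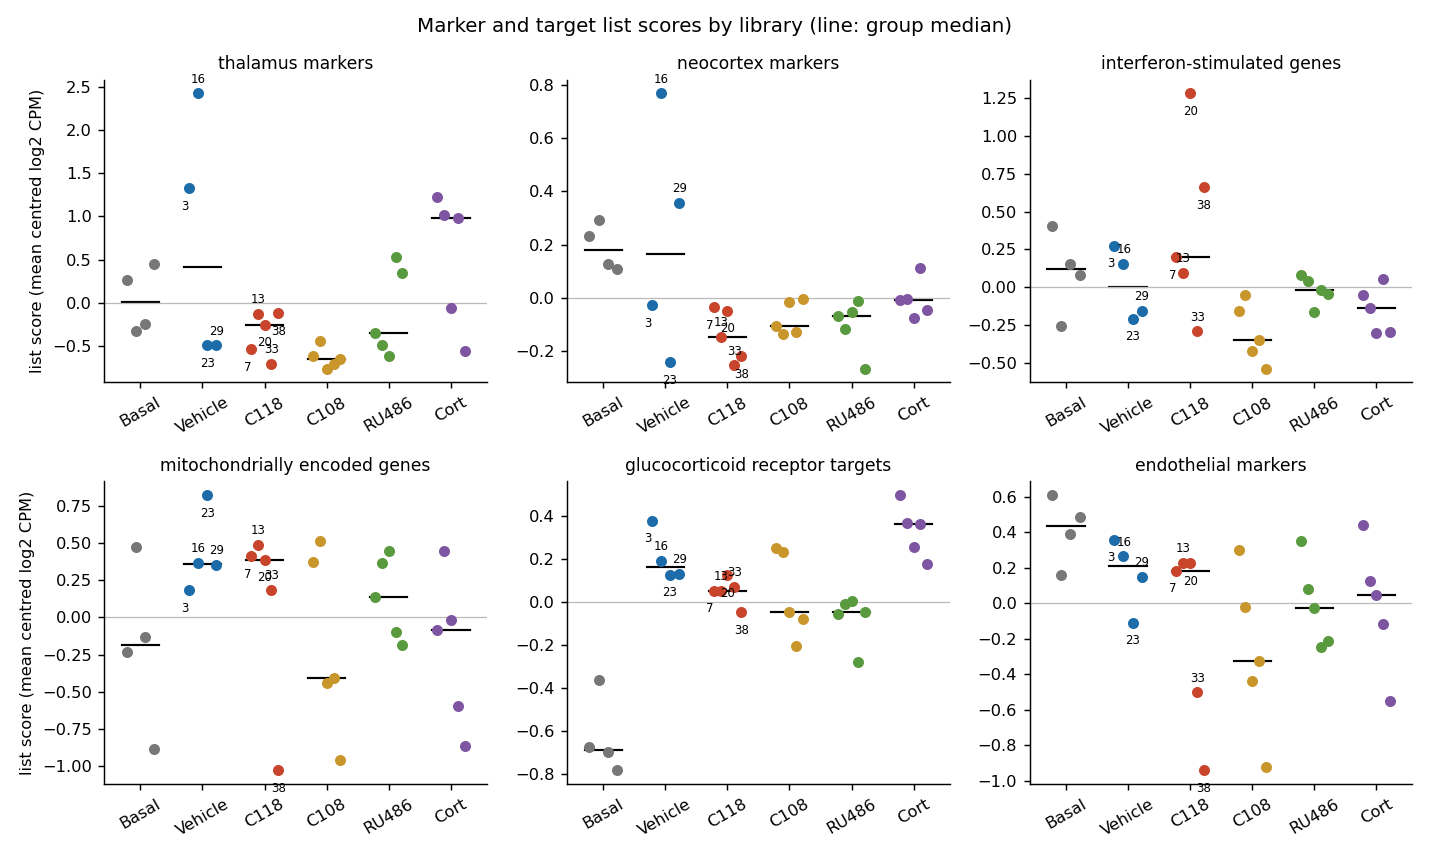
Scores of 6 gene lists in each of the 28 libraries, grouped by treatment along the horizontal axis; the vertical axis is the mean centred log2 CPM of the list, a dot is a library, a line is the group median, and numbers name the Vehicle and C118 libraries. Vehicle 3 and 16 stand above all C118 libraries for thalamus markers (1.33 and 2.42), and C118 20 and 38 stand above all others for interferon-stimulated genes (1.28 and 0.66).

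No gene passed the test between C118 and Vehicle. Of 16735 genes, edgeR's quasi-likelihood test on all 28 libraries called 0% (0 higher and 0 lower in C118) at a Benjamini-Hochberg adjusted p under 0.05. limma-voom also called 0, while DESeq2 called 5 genes higher (0.0311% of the 16085 genes to which it gave an adjusted p) and 49 lower (0.305%). At an unadjusted edgeR p under 0.05, 596 genes were higher (3.56%) and 744 lower (4.45%), 8.01% together. All 5 C118 libraries lay above all 4 Vehicle libraries for 103 genes (0.615%) and below them for 123 (0.735%). The median log2 fold change over all genes was 0.01. Left-out Vehicle libraries moved the count of calls: without Vehicle 23 there were 214 calls, 42 higher and 172 lower, without Vehicle 3 there were 24, all lower, and without Vehicle 16 or 29 there were 0. The labels do not say that each library came from its own mouse, so the p-values measure the spread between these libraries.

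The smallest p-values belonged to genes with lower mean levels in C118, led by Efna5 and Plxdc1. Efna5 encodes ephrin-A5, a membrane-bound guidance cue for growing axons. The Vehicle libraries had 4.39, 8.41, 3.18 and 6.7 CPM of Efna5, and the C118 libraries had 2.68, 2.49, 3.1, 1.74 and 2.56 CPM. All C118 libraries lay below all Vehicle libraries, and Vehicle 16 and 29 were the highest. This gave Efna5 a log2 fold change of -1.17 ± 0.21 (adjusted p = 0.0502). Plxdc1 encodes a plexin domain protein of the cell membrane. Levels of Plxdc1 were 7.49, 18.4, 4.57 and 11.6 CPM in Vehicle and 4.04, 3.42, 4.89, 4.07 and 4.82 CPM in C118. The groups overlapped, because Vehicle 23 lay within the C118 range. For Plxdc1 the log2 fold change was -1.31 ± 0.23 and the edgeR adjusted p was 0.0502.

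At an unadjusted edgeR p under 0.05, 3.56% of all genes were higher and 4.45% lower in C118. Of 30 calcium channel and calcium sensor genes tested, 2 were higher and 4 lower at that threshold. Of 15 CaM kinase genes, 2 were higher and 3 lower. The members of these lists with the smallest p were Cacna1g, Necab1 and Camk2d. Cacna1g encodes a low-voltage T-type calcium channel that supports burst firing. In Vehicle, Cacna1g reached 54.2, 64.7, 33.4 and 55.8 CPM, and in C118 it reached 32.2, 25.8, 30.3, 27.4 and 30.02 CPM. Vehicle 23 was the lowest of its group and still above every C118 library. Cacna1g had a difference of -0.84 ± 0.16 on the log2 scale (adjusted p = 0.0687). Camk2d, the delta subunit of calcium/calmodulin-dependent kinase II, had the same arrangement. For Camk2d the libraries gave 44.7, 70.2, 33.9 and 52.4 CPM in Vehicle and 30.3, 30.2, 29.7, 32.2 and 32.7 CPM in C118. The difference in Camk2d was -0.70 ± 0.14 in log2 units (adjusted p = 0.0687). Necab1, a neuronal calcium-binding protein, was highest in Vehicle 29. Vehicle libraries held 72.9, 78.2, 49 and 122 CPM of Necab1, and C118 libraries 50.2, 38.8, 47, 49.2 and 46.8 CPM. Vehicle 23 overlapped with C118. Its log2 fold change was -0.80 ± 0.15, with an edgeR adjusted p of 0.0687. Pygm, the muscle form of glycogen phosphorylase, which astrocytes also use to release glucose units from glycogen, did not overlap between groups. Pygm was at 18.5, 25.6, 18.4 and 22.2 CPM in the Vehicle libraries and at 12.7, 16.3, 14.6, 14.2 and 13.5 CPM in the C118 libraries. The log2 fold change of Pygm was -0.57 ± 0.12 (SE), with an adjusted p of 0.083.

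The other 6 genes of the 12 with the smallest p among the lower ones were Zdhhc22, Otof, Foxp2, Ankrd34c, Tspan9 and Ptgfrn, with log2 fold changes of -2.21 to -0.58 and adjusted p of 0.0868 to 0.102. Foxp2, a transcription factor found in thalamus and in deep layers of cortex, stood at 5.06 and 10.4 CPM in Vehicle 3 and 16 but at 1.11 and 2.20 CPM in Vehicle 23 and 29, against 0.581 to 1.37 CPM in C118. Otof, a calcium sensor of vesicle release, was instead highest in Vehicle 16 and 29, at 4.21 and 5.22 CPM, against 0.753 to 1.32 CPM in C118. Basal libraries, which were neither conditioned nor treated, had 2.89 to 3.78 CPM of Efna5 and 28.4 to 41.6 CPM of Camk2d, ranges that overlapped with both C118 and Vehicle.

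**Figure D2:**
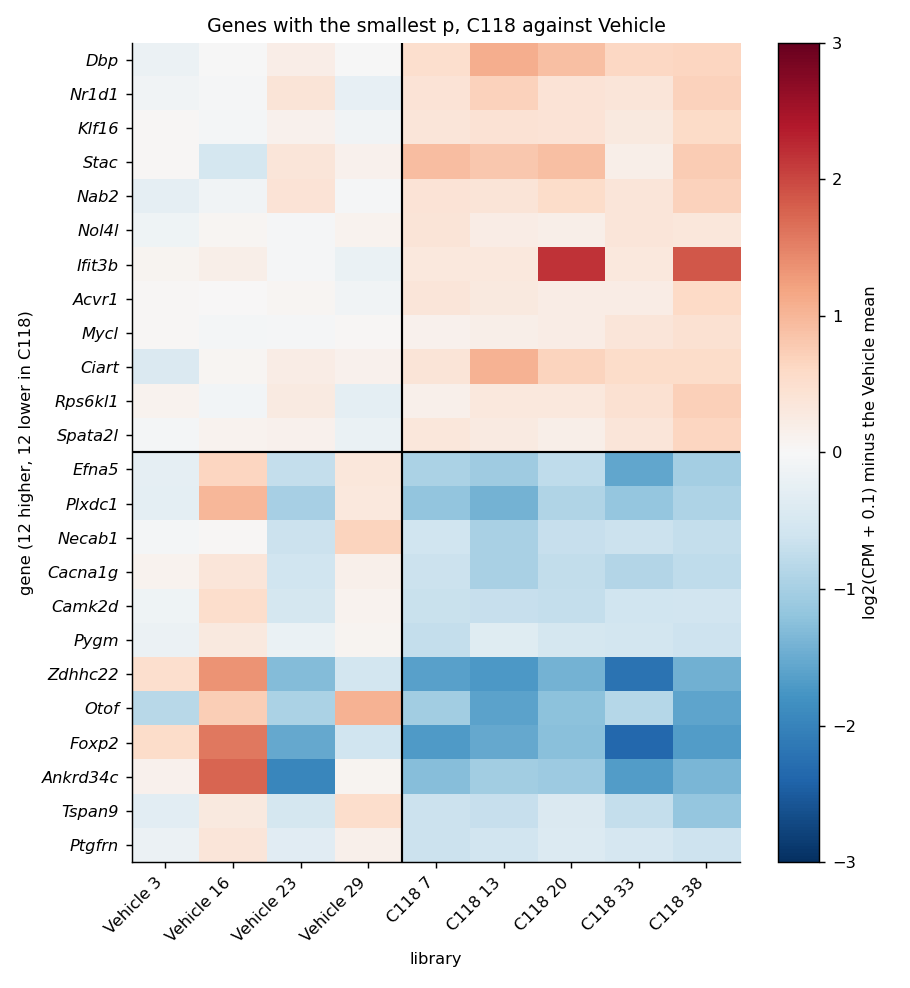
Colour shows the level of the 24 genes with the smallest p (12 higher and 12 lower in C118) in each Vehicle and C118 library, as log2(CPM + 0.1) minus the mean of the Vehicle libraries; columns are libraries and rows are genes. The lower genes are uneven within Vehicle, with Vehicle 16 the darkest red for most and Vehicle 23 blue for all 12, while Ifit3b is dark in C118 20 and C118 38 alone.

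Several of these lower genes were highest in the Vehicle libraries with the most thalamus or neocortex marker RNA, so the fit was repeated with both marker scores as covariates. The 12 lower genes kept between 16.7% and 67.5% of their log2 fold change (median 53.2%), from Ankrd34c, which went from -1.92 to -0.32, to Necab1, which went from -0.80 to -0.54. Foxp2 (30.3%) is itself on the neocortex list, so its value was adjusted for a score that contains it. The 12 higher genes kept between 70% and 113% (median 90.7%). With the scores in the fit, 0 genes were called, 222 were higher and 158 lower at an unadjusted p under 0.05. Of the 744 lower genes at that threshold without the scores, 102 were shared, and of the 596 higher genes 111 were shared. Without Vehicle 3 and 16, the pair with the most thalamus marker RNA, Efna5 was at -0.98 and Necab1 at -0.88. Without Vehicle 16 and 29, the pair with the most neocortex marker RNA, they were at -0.59 and -0.39. The part of thalamus and neocortex tissue in these differences was not tested beyond these fits.

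**Figure D3:**
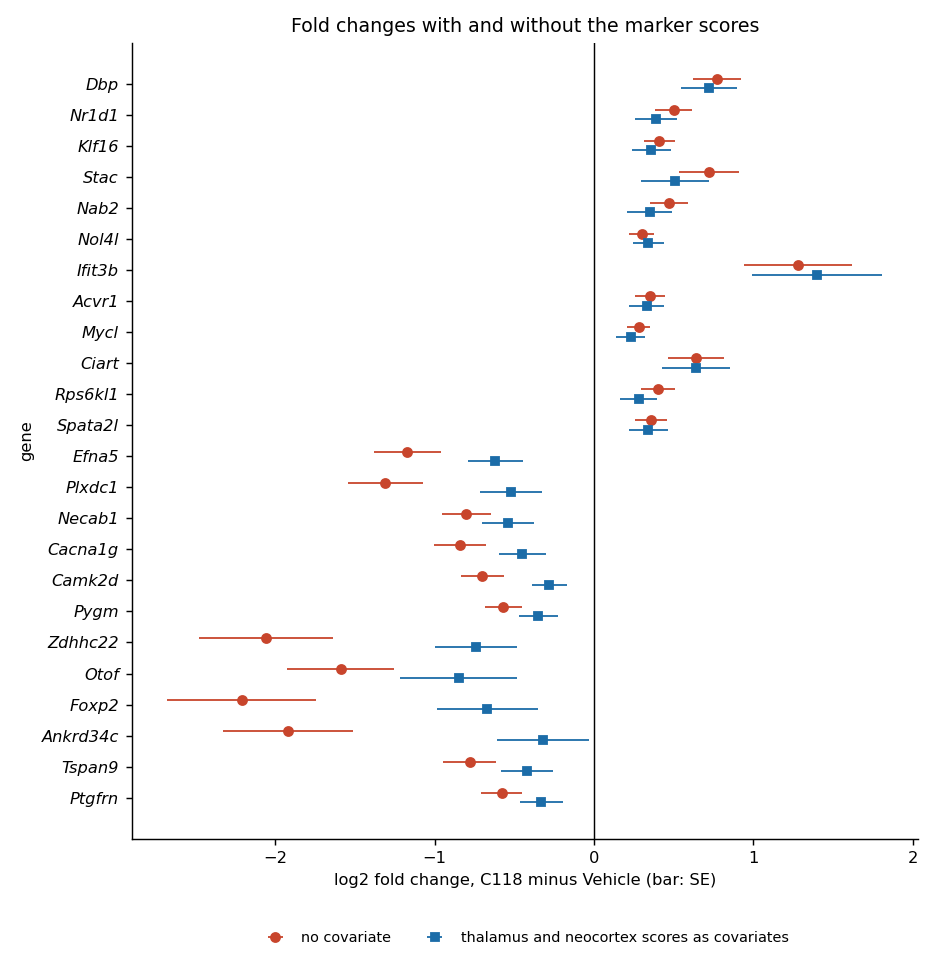
Log2 fold change of C118 minus Vehicle on the horizontal axis for the 24 genes with the smallest p, one row per gene, with red dots from the fit without covariates, blue squares from the fit with thalamus and neocortex scores, and bars of 1 SE. The squares of the 12 lower genes sit nearer to 0 than the dots, while those of Dbp (0.77 and 0.72) and Ciart (0.65 and 0.64) nearly coincide.

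Circadian clock genes held the higher gene with the smallest p. The clock is a loop in which CLOCK or NPAS2, paired with ARNTL, drives the Per and Cry genes and the nuclear receptors Nr1d1 and Nr1d2, whose products then hold the loop back. Dbp, Tef and Hlf are output factors of the same loop. Dbp, an output transcription factor of the PAR bZIP family, had a higher level in every C118 library than in any Vehicle library. The Vehicle libraries had 19.3, 21.6, 24.8 and 21.7 CPM of Dbp, and the C118 libraries had 30.9, 46.3, 40.7, 33.6 and 34.3 CPM. The lowest C118 library, C118 7, was above the highest Vehicle library, and Basal ran from 18.0 to 29.7 CPM. This gave Dbp a log2 fold change of 0.77 ± 0.15 (adjusted p = 0.0687). The difference was 0.72 with the tissue scores, 0.68 without Vehicle 3 and 16, and 0.76 without C118 20 and 38. Among the 20 alternatives Dbp passed in 2, with DESeq2 (adjusted p = 0.00221) and without Vehicle 23 (0.00912), and the fold change stayed between 0.67 and 0.83.

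Nr1d1 encodes REV-ERB alpha, a repressor in the clock loop. Levels of Nr1d1 were 53.4, 55.2, 74.1 and 48.3 CPM in Vehicle and 76.2, 91.8, 76, 73.4 and 92.2 CPM in C118. Vehicle 23 overlapped with C118, and the other 3 Vehicle libraries lay below it. For Nr1d1 the log2 fold change was 0.51 ± 0.12 and the edgeR adjusted p was 0.13. Ciart encodes a protein that binds and represses the CLOCK complex. In Vehicle, Ciart reached 4.13, 5.9, 6.58 and 6.19 CPM, and in C118 it reached 7.33, 11.8, 8.95, 8.3 and 8.28 CPM. C118 and Vehicle did not overlap, and Basal, at 3.29 to 4.63 CPM, overlapped with Vehicle. Ciart had a difference of 0.65 ± 0.17 on the log2 scale (adjusted p = 0.201). Bhlhe40 and Bhlhe41, the DEC repressors, compete with CLOCK at its DNA sites. Bhlhe41 did not overlap between groups, with 24.9 to 30.8 CPM in Vehicle and 30.9 to 36.9 CPM in C118 (log2 fold change 0.27 ± 0.10, adjusted p = 0.486). Bhlhe40 did overlap, with 73.7 to 112 CPM in Vehicle and 107 to 145 CPM in C118 (0.40 ± 0.13, adjusted p = 0.314). Per2 was also higher in every C118 library, at 28.7 to 33.9 CPM against 24.4 to 27.6 CPM, with a log2 fold change of 0.22.

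Of the 24 clock genes tested, 5 were higher (3.56% over all genes) and 4 lower (4.45%) in C118 at an unadjusted p under 0.05. Without overlap, 4 lay above Vehicle (0.615% over all genes) and 1 below (0.735%), and 0 passed the adjusted test. Their median log2 fold change was 0.07, beside 0.01 over all genes. The lower members were Npas2 (-0.29 ± 0.10), the partner of ARNTL in forebrain, Hlf (-0.37 ± 0.14) and the receptors Rora and Rorb. Rora activates the loop at the sites where Nr1d1 represses it, and it is also abundant in thalamus and was in that marker list. For Rora the libraries gave 75.1, 140.4, 48.5 and 66 CPM in Vehicle and 45.6, 39.9, 44.7, 41.3 and 31.8 CPM in C118. Vehicle 16 was far above the rest, and all C118 libraries lay below all Vehicle libraries. The difference in Rora was -1.02 ± 0.22 in log2 units (adjusted p = 0.104). With the tissue scores, which contain it, the value was -0.37. Of the other members of the loop, log2 fold changes were -0.05 for Clock, -0.01 for Arntl, 0.16 for Per1, -0.03 for Per3, -0.01 for Cry1, 0.10 for Cry2 and 0.11 for Nr1d2.

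**Figure D4:**
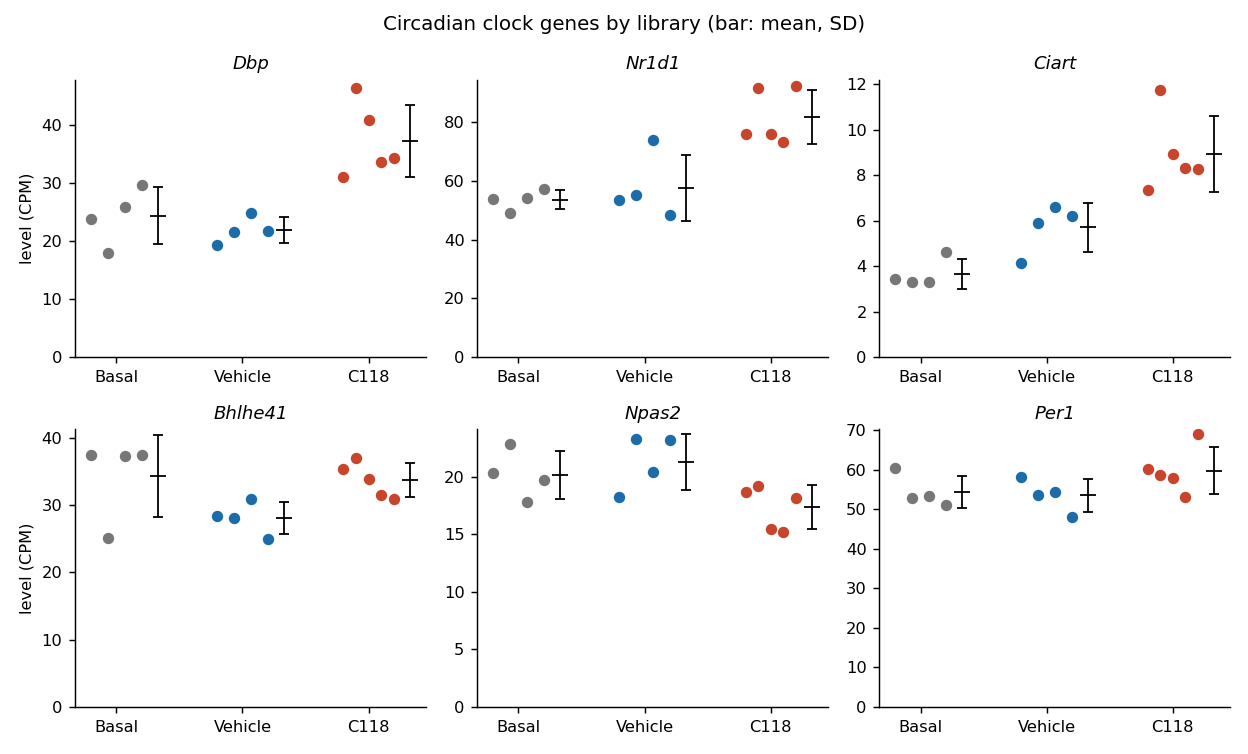
Levels in CPM (vertical axis, from 0) of 6 clock genes in the Basal, Vehicle and C118 libraries; a dot is a library and the bar at its right is the group mean with 1 SD. The C118 dots of Dbp (30.9 to 46.3 CPM) and Ciart (7.33 to 11.8 CPM) lie above every Vehicle dot, whereas those of Per1 overlap with both other groups.

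Clock factors bind the E-box CACGTG, which reads the same on both strands. In the RefSeq promoters of build GRCm38.p6, each 300 bases long and running from 250 bases before to 50 after a gene's start, this motif was in 7.15% of all 32851 windows. Counted per gene, with a match in any of its windows, it was in 11.2% of the 11798 tested genes with a window, in 5 of 19 clock genes (26.3%) and in 7 of 32 glucocorticoid receptor targets (21.9%). The 5 clock genes were Bhlhe41, Ciart, Cry1, Per1 and Tef. The Dbp and Nr1d1 windows did not hold these letters. The window of Ciart, on the minus strand of chr3:95882179-95882478, is shown because it holds 3 E-boxes, here in capitals, at -116, -58 and -44 (the first base of the match, counted from the start, negative before it).
Ciart: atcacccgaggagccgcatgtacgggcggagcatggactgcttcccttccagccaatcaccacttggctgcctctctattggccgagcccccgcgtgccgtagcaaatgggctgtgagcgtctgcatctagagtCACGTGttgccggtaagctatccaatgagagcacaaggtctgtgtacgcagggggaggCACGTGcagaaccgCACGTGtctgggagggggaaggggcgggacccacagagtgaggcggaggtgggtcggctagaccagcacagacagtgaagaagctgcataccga

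Genes that the glucocorticoid receptor is known to induce had lower mean levels in C118 more often than higher ones. Of 38 targets tested, 25 had a negative log2 fold change (the share of positive values over all genes was 52.4%), with a median of -0.11. At an unadjusted p under 0.05, 8 were lower (4.45% over all genes) and 1 higher (3.56%). None passed the adjusted test. The scores of the list ran from 0.127 to 0.379 in Vehicle, from -0.048 to 0.126 in C118 and from -0.78 to -0.36 in Basal. All C118 scores were below all Vehicle scores, by a very narrow gap between C118 20 and Vehicle 23, and above all Basal scores.

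Cdkn1a, which encodes the cell cycle inhibitor p21 and is induced by both the glucocorticoid receptor and p53, showed the widest separation. Vehicle libraries held 51.8, 45.9, 40.2 and 39.6 CPM of Cdkn1a, and C118 libraries 21.8, 22.5, 18.5, 21.9 and 18.3 CPM. Basal libraries had 5.36 to 11.7 CPM, so the 3 groups did not overlap and C118 lay between Basal and Vehicle. Its log2 fold change was -1.11 ± 0.29, with an edgeR adjusted p of 0.201. In a fit to the C118 and Vehicle libraries alone the adjusted p was 0.00124, the single call of that fit, and over all alternatives the fold change stayed between -1.16 and -0.95. Pdk4, a kinase that shuts off pyruvate dehydrogenase, also did not overlap. Pdk4 was at 15.1, 15.5, 14.6 and 23.9 CPM in the Vehicle libraries and at 12, 8.97, 11.9, 14.1 and 9.24 CPM in the C118 libraries. Vehicle 29 was far above the other 3. The log2 fold change of Pdk4 was -0.62 ± 0.18 (SE), with an adjusted p of 0.261. Tsc22d3 encodes GILZ, an anti-inflammatory target of the receptor. The Vehicle libraries had 114, 117, 105 and 149 CPM of Tsc22d3, and the C118 libraries had 92.3, 93.5, 103, 104 and 80.2 CPM. All C118 libraries lay below all Vehicle libraries, by a narrow gap between C118 33 and Vehicle 23, and above the Basal range of 38.1 to 63.2 CPM. This gave Tsc22d3 a log2 fold change of -0.36 ± 0.16 (adjusted p = 0.56).

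Other targets with an unadjusted p under 0.05 were lower by small amounts or at low levels. Angptl4, an inhibitor of lipoprotein lipase, had 1.56 to 3.67 CPM in Vehicle and 0.703 to 1.97 CPM in C118 (log2 fold change -0.95 ± 0.32, adjusted p = 0.376). Lcn2, Map3k6, Pnpla2 and Mertk had fold changes of -1.24, -0.48, -0.33 and -0.27, and Lcn2 was at 0.201 to 1.28 CPM in the 9 libraries. In the opposite direction, Rasd1, a small G protein named for its induction by dexamethasone, was higher in C118 at 0.42 ± 0.16. Of the 8 lower targets, 7 had their lowest level of the 9 libraries in C118 38 (Angptl4, Lcn2, Map3k6, Pnpla2, Mertk, Cdkn1a and Tsc22d3; Pdk4 was lowest in C118 13), as had 17 of all 38 targets. C118 38 was also the lowest C118 library for the endothelial, astrocyte and mitochondrial scores. Without C118 38 the log2 fold change was -1.08 for Cdkn1a, -0.31 for Tsc22d3 and -0.79 for Angptl4, and the median of the targets was -0.13. Rasd1 was lowest in Vehicle 29.

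Unlike Tsc22d3, the targets Fkbp5 and Sgk1, also used as readouts of the receptor, did not separate the groups. Fkbp5 encodes a co-chaperone that lowers the receptor's affinity for hormone. Levels of Fkbp5 were 124, 115, 137 and 144 CPM in Vehicle and 111, 110.3, 113, 132 and 146 CPM in C118. The ranges overlapped fully, and both lay above the Basal range of 59.9 to 80.6 CPM. For Fkbp5 the log2 fold change was -0.09 ± 0.10 and the edgeR adjusted p was 0.85. Sgk1, a kinase that regulates ion channels, overlapped in the same way. In Vehicle, Sgk1 reached 198, 161, 129.8 and 143 CPM, and in C118 it reached 168, 130.4, 153, 150.5 and 154 CPM. Sgk1 had a difference of -0.06 ± 0.22 on the log2 scale (adjusted p = 0.958). Its sign turned to 0.15 without Vehicle 3 and 16. Per1, Zbtb16, Klf9 and Mt1 had log2 fold changes of 0.16, -0.08, 0.14 and 0.01.

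**Figure D5:**
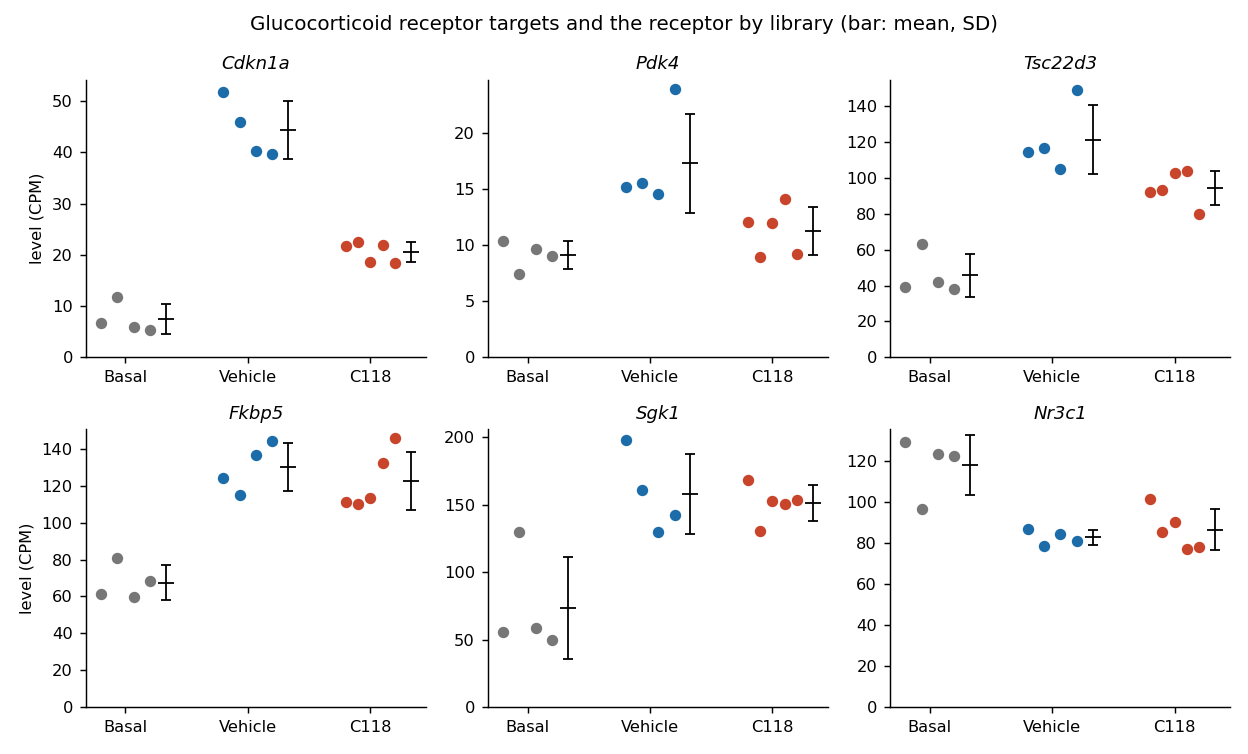
Levels in CPM (vertical axis, from 0) of 5 glucocorticoid receptor targets and of the receptor gene Nr3c1 in the Basal, Vehicle and C118 libraries; dots are libraries and bars are the group mean with 1 SD. Cdkn1a falls into 3 separate ranges, with C118 (18.3 to 22.5 CPM) between Basal and Vehicle, while the C118 and Vehicle dots of Fkbp5 and Sgk1 overlap.

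The palindromic glucocorticoid response element, searched as AGAACA, any 3 bases and TGTTCT, was in 0.00913% of the 32851 promoter windows, 3 in all, and, per gene, in 1 of the 11798 tested genes with a window, which is 1 of the 32 targets. That window belongs to one of the Sgk1 starts, on the plus strand of chr10:21993640-21993939, and is shown with the element in capitals at -189. Sgk1, whose levels overlapped between C118 and Vehicle, is thus the target with the exact palindrome near a start.
Sgk1: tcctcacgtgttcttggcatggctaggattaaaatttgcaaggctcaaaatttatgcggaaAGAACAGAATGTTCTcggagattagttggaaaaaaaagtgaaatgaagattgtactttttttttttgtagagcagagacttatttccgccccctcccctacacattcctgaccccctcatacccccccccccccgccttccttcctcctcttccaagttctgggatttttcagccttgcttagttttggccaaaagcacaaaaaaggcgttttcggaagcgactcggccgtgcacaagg

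The receptors themselves were at like levels. Nr3c1 had 78.4 to 87.0 CPM in Vehicle and 76.8 to 102 CPM in C118, with a log2 fold change of 0.06 ± 0.09 (adjusted p = 0.886). Nr3c2, the mineralocorticoid receptor gene, was uneven within Vehicle. For Nr3c2 the libraries gave 344, 211, 306 and 182 CPM in Vehicle and 315, 288, 282, 285 and 332 CPM in C118. Vehicle 16 and 29, the libraries with the lowest CA1 and dentate gyrus scores, were the low ones. The difference in Nr3c2 was 0.20 ± 0.13 in log2 units (adjusted p = 0.734). Without those 2 libraries the fold change was -0.11. Among the 19 steroid receptors, chaperones and hormone-handling genes tested, 0 had an unadjusted p under 0.05, and the median was 0.07.

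Immediate early genes are switched on by neurons within minutes of activity. Of 39 tested, 25 had a positive log2 fold change (52.4% over all genes), 8 were higher (3.56% over all genes) and 1 lower (4.45%) at an unadjusted p under 0.05, with a median of 0.17, and 0 passed the adjusted test. The scores ran from -0.23 to -0.08 in Vehicle and from -0.16 to 0.18 in C118, where C118 33 was the lowest and C118 38 the highest. The 8 higher members were Egr4, Nr4a3, Plk2, Junb, Nr4a1, Dusp6, Klf10 and Atf3, and the lower one was Apold1, an endothelial gene.

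Egr4, a zinc finger transcription factor, had 5.83 to 12.3 CPM in Vehicle and 11.4 to 23.5 CPM in C118 (0.81 ± 0.28, adjusted p = 0.411), with C118 38 the highest. Nr4a1, an orphan nuclear receptor, had the following levels. Vehicle libraries held 37.3, 28.9, 43.7 and 28 CPM of Nr4a1, and C118 libraries 58.2, 55.8, 59.2, 34.7 and 64.6 CPM. C118 33 fell among the Vehicle libraries and the other 4 lay above them. Its log2 fold change was 0.66 ± 0.26, with an edgeR adjusted p of 0.501. Dusp6, a phosphatase that switches off ERK, was the one member without overlap, at 27.6 to 40.5 CPM in Vehicle and 41.1 to 49.3 CPM in C118, with a log2 fold change of 0.45 ± 0.18. Nab2, a co-repressor of EGR factors that is itself induced by activity, was among the 12 higher genes with the smallest p. Nab2 was at 22.9, 25.5, 36.4 and 26.7 CPM in the Vehicle libraries and at 36.3, 35.9, 40.5, 35.1 and 44.2 CPM in the C118 libraries. Vehicle 23 was above 3 of the C118 libraries. The log2 fold change of Nab2 was 0.47 ± 0.12 (SE), with an adjusted p of 0.191.

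The most used activity markers were spread widely. Fos, part of the AP-1 factor, had the following levels. The Vehicle libraries had 3.77, 4.92, 6.86 and 5.88 CPM of Fos, and the C118 libraries had 9.46, 6.37, 9.0, 5.76 and 13.7 CPM. This gave Fos a log2 fold change of 0.73 ± 0.41 (adjusted p = 0.686). Arc, which acts at synapses to remove AMPA receptors, was high in Vehicle 23. Levels of Arc were 63.3, 63, 99.5 and 56.1 CPM in Vehicle and 101, 112, 102, 74.1 and 115 CPM in C118. For Arc the log2 fold change was 0.52 ± 0.34 and the edgeR adjusted p was 0.737. Npas4, a factor that builds inhibitory synapses, had a log2 fold change of 0.55 ± 0.40 (adjusted p = 0.768). For all 3 the ranges of the groups overlapped. Of 26 later activity-regulated genes, 5 were higher (Bhlhe40, Dusp4, Dusp5, Synpo and Kcnj4) and 2 lower (Cdkn1a and Rgs4) at an unadjusted p under 0.05, with a median of 0.10. The shares over all genes were 3.56% higher and 4.45% lower. Without C118 20 and 38 the median of the immediate early genes was 0.09. In Vehicle the lowest scores of that list were those of Vehicle 16 (-0.202) and 29 (-0.228), the libraries with the lowest CA1 and dentate gyrus scores. Over the alternatives the log2 fold change ran from 0.112 to 0.501 for Plk2, 0.439 to 1.01 for Egr4 and 0.223 to 0.507 for Nr4a3. The ranges were 0.431 to 0.965 for Junb and 0.43 to 0.797 for Nr4a1.

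Interferon-stimulated genes had the highest median of all 36 lists. Interferons bind receptors at the cell surface and raise genes that block viral replication, among them the Ifit and Oas families and Isg15. Of 27 members tested, 24 had a positive log2 fold change, the median was 0.43, 9 were higher (3.56% over all genes) and 0 lower (4.45%) at an unadjusted p under 0.05, and 0 passed the adjusted test. The difference rested on 2 libraries. Without C118 20 and 38 the median was -0.01.

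Ifit3b, an interferon-induced protein with tetratricopeptide repeats, had the smallest p of the list. In Vehicle, Ifit3b reached 2.01, 2.15, 1.84 and 1.64 CPM, and in C118 it reached 2.4, 2.37, 8.84, 2.38 and 7.13 CPM. C118 20 and C118 38 stood far above the rest, and the other 3 C118 libraries were just above the highest Vehicle library. Ifit3b had a difference of 1.28 ± 0.34 on the log2 scale (adjusted p = 0.201). Without C118 20 and 38 it was 0.32, and with DESeq2 the adjusted p was 0.04996. Ifit3, a near-identical neighbour whose reads the counting could have shared with Ifit3b, showed the same pair of libraries. For Ifit3 the libraries gave 3.87, 4.05, 3.35 and 2.87 CPM in Vehicle and 5.36, 3.47, 15.6, 3.17 and 13 CPM in C118. The difference in Ifit3 was 1.2 ± 0.34 in log2 units (adjusted p = 0.242). Without the pair it was 0.18.

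Oasl2, an antiviral oligoadenylate synthetase-like protein, behaved likewise. Vehicle libraries held 2.63, 2.56, 1.45 and 1.69 CPM of Oasl2, and C118 libraries 3.17, 2.43, 11.7, 1.8 and 6.17 CPM. Its log2 fold change was 1.28 ± 0.36, with an edgeR adjusted p of 0.248. Isg15, a ubiquitin-like modifier, was low, with 6 to 56 counts per library. Isg15 was at 0.723, 0.616, 0.335 and 0.461 CPM in the Vehicle libraries and at 0.984, 1.16, 2.95, 0.423 and 1.1 CPM in the C118 libraries. C118 20 was the highest, and the other C118 libraries other than C118 33 lay above Vehicle. The log2 fold change of Isg15 was 1.30 ± 0.39 (SE), with an adjusted p of 0.286. Without the pair it was 0.66, the largest remainder among the 9 members. Irf7, the factor that amplifies interferon production, was 6.84 CPM in C118 20 and 0.837 to 2.01 CPM in the other 8 libraries. Usp18, Ifit1, Rtp4 and Gbp2 had log2 fold changes of 1.5, 0.98, 0.81 and 0.66, which became 0.18, -0.13, 0.16 and 0.21 without the pair. Cxcl10, a chemokine induced by interferon, had 1.53 and 2.86 CPM in C118 20 and 38 and 0 to 0.167 CPM in the other 7 libraries. Basal ran from 0.0548 to 0.768 CPM of Cxcl10, with Basal 1 the highest.

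Other immune lists moved with these libraries in part. C118 20 had the highest scores of the 9 for microglia and macrophage markers (0.47), antigen presentation genes (0.71) and inflammatory signalling genes (0.37). C118 38 had -0.51, -0.03 and 0.02 on the same lists, together with the low mitochondrial and endothelial scores given above. Over the group, microglia and macrophage markers had a median of -0.02 with 0 of 19 at an unadjusted p under 0.05. Antigen presentation genes had a median of 0.04, with 1 of 18, Nlrc5, higher. The part of these features in the interferon pattern was not tested.

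Promoters of many interferon-stimulated genes hold the interferon response element, searched here as GAAA, any 2 bases and GAAA or, for the other strand, TTTC, any 2 bases and TTTC, counting overlapping matches. It was in 3.44% of all promoter windows (1131 of 32851) and, per gene, in 3.6% of the 11798 tested genes with a window and 13 of the 21 interferon-stimulated genes among them (61.9%). The windows of the 3 members below are shown because they include the list's smallest p and carry 2 or 3 matches each, in capitals. Ifit3 lies on the plus strand of chr19:34583279-34583578, with matches at -156 and -122. Ifit3b lies on the plus strand of chr19:34607707-34608006, with matches at -188 and -154 that have the same letters as those of Ifit3. Isg15 lies on the minus strand of chr4:156200769-156201068, with 3 overlapping matches at -78, -72 and -66.
Ifit3: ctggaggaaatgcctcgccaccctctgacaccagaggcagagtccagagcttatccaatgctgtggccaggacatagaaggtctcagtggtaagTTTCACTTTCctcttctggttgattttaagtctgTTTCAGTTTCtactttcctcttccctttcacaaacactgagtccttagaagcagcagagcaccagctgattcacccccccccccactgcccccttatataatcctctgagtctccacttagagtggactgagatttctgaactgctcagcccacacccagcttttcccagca
Ifit3b: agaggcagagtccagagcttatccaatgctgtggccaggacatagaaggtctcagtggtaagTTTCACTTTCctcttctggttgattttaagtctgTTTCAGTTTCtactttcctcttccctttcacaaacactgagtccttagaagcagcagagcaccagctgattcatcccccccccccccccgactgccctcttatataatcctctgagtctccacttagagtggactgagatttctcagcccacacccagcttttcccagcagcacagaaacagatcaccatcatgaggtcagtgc
Isg15: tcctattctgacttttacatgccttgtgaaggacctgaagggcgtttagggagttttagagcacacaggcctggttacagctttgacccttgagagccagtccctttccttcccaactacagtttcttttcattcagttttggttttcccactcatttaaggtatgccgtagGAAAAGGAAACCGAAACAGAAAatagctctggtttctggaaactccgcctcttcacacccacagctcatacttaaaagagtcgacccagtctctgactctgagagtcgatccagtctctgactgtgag

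The remaining genes among the 12 higher ones with the smallest p were Klf16, Stac, Nol4l, Acvr1, Mycl, Rps6kl1 and Spata2l, with log2 fold changes of 0.28 to 0.72 and adjusted p of 0.155 to 0.21. Klf16, a zinc finger transcription factor, had 27.7 to 32.9 CPM in Vehicle and 36.6 to 44.8 CPM in C118, without overlap. Basal was at 40.1 to 56.9 CPM. Acvr1, a receptor for bone morphogenetic proteins, had 26.1 to 29.5 CPM in Vehicle, 32.8 to 42.7 CPM in C118 and 36 to 44.6 CPM in Basal. Stac, an adaptor of L-type calcium channels, was 3.96 CPM in C118 33 and 6.02 to 6.72 CPM in the other C118 libraries, against 2.41 to 4.52 CPM in Vehicle. In Klf16 and Acvr1 the C118 ranges overlapped with Basal and not with Vehicle.

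Synaptic receptor and channel genes had members at an unadjusted p under 0.05 in both directions, where the shares over all genes were 3.56% higher and 4.45% lower. Of 27 glutamate receptor subunits and partners, 3 were higher (Gria1, Grin1 and Cacng8) and 7 lower (Gria4, Grm4, Grm3, Grm8, Grik1, Grik3 and Grin3a) at an unadjusted p under 0.05, with a median of 0.03. Grm4, a presynaptic metabotropic receptor, had a lower mean in C118. The Vehicle libraries had 13.8, 22.7, 8.03 and 15 CPM of Grm4, and the C118 libraries had 7.49, 7.41, 8.0, 6.92 and 9.99 CPM. Vehicle 23 lay within the C118 range. This gave Grm4 a log2 fold change of -0.90 ± 0.21 (adjusted p = 0.122). It was called by DESeq2 (adjusted p = 0.0142). Gria4, an AMPA receptor subunit of interneurons and thalamus, had 59.4 and 60.7 CPM in Vehicle 3 and 23, 86.7 and 94.5 CPM in Vehicle 16 and 29, and 51.3 to 62.2 CPM in C118. Without Vehicle 16 and 29 its log2 fold change went from -0.36 to -0.03. Gria1, one of the higher members, was at 930 and 1089 CPM in Vehicle 16 and 29, and at 1250 and 1334 CPM in Vehicle 3 and 23. The C118 libraries had 1259 to 1636 CPM of Gria1, and over the alternatives its log2 fold change ran from 0.099 to 0.351.

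Of 12 GABA-A receptor subunits, Gabra5, which forms extrasynaptic receptors in the hippocampus, was higher (0.30 ± 0.10) and Gabra3, Gabrd and Gabrg1 were lower at an unadjusted p under 0.05, with a median of -0.04. Gabra5 was at 216.5 and 208.1 CPM in Vehicle 16 and 29 but at 291.1 and 346.4 CPM in Vehicle 3 and 23, against 313.4 to 350.9 CPM in C118. Over the alternatives its log2 fold change ran from 0.04 to 0.46. Gabra3, a subunit of cortical and thalamic receptors, was uneven within Vehicle. Levels of Gabra3 were 48.5, 65.8, 45 and 117 CPM in Vehicle and 48.1, 48.2, 52.8, 44.2 and 35.7 CPM in C118. Vehicle 29 was far above the rest, and without Vehicle 16 and 29 the log2 fold change went from -0.59 to -0.03. Among 52 potassium channel genes 5 were higher and 10 lower, with a median of 0.04, the smallest p being that of Kcnc2, a fast delayed rectifier (-0.47 ± 0.11, adjusted p = 0.147). Of 34 genes of neuropeptides and their receptors, 0 were higher and 8 lower, beside 3.56% and 4.45% of all genes. Their median was -0.02, and 16 of the 34 were positive. Vipr2, a receptor for vasoactive intestinal peptide that is also on the thalamus list, was 11.3 CPM in Vehicle 16 and 0.368 to 2.01 CPM in the other 8 libraries, and went from -2.62 to -0.13 with the tissue scores, which contain it.

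Several marker lists had negative medians in C118. Thalamus markers had -1.42, with 15 of 17 lower at an unadjusted p under 0.05, and neocortex markers -0.28, with 7 of 18 lower. Red blood cell genes had -0.28 and meningeal fibroblast markers -0.24. Pericyte and smooth muscle markers had -0.14, with 10 of 14 negative. Of 23 endothelial markers, 21 had a negative log2 fold change, with a median of -0.29. Of 22 astrocyte markers, 20 were negative, with a median of -0.17, while 52.4% of all genes were positive. Only 2 endothelial and 3 astrocyte markers had an unadjusted p under 0.05, all lower (4.45% over all genes). The endothelial and astrocyte scores overlapped between groups. C118 33 and 38 had the low endothelial scores, -0.50 and -0.94, while C118 7, 13 and 20 lay at 0.18 to 0.23, within the Vehicle range of -0.11 to 0.36. The astrocyte score was -0.59 in C118 38 and -0.04 to 0.22 in the other C118 libraries. Without C118 20 and 38 the medians were -0.21 for endothelial and -0.07 for astrocyte markers.

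All 13 mitochondrially encoded genes tested had a negative log2 fold change, with a median of -0.18, and 0 reached an unadjusted p of 0.05. Their summed level was 31130 CPM in the lowest C118 library, C118 38, against 51540 to 85220 CPM in Vehicle. Without C118 20 and 38 the median was -0.03. Choroid plexus markers had a median of -1.45 with 0 of 15 at an unadjusted p under 0.05, and their score ran from -1.33 to 2.16 within Vehicle alone. Microglia, myelin, oligodendrocyte precursor and interneuron lists had medians between -0.02 and 0.03. Other marker lists had positive medians. Ependymal cilia markers had 0.30, with 12 of 13 positive and 0 at an unadjusted p under 0.05, and their score ran from -1.26 to 0.98 within Vehicle. CA1 markers had 0.13 (10 of 14 positive), CA3 and CA2 markers 0.10 (12 of 16) and dentate gyrus markers 0.11 (13 of 17), while 52.4% of all genes were positive.

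C118 was also compared directly with the 3 other ligands, in contrasts of the same fit to all 28 libraries. The edgeR test called 0% of genes in each of these comparisons. At an unadjusted p under 0.05, 260 genes were higher in C118 than in C108 (1.55%) and 141 lower (0.843%), 2.4% together. Against RU486 103 were higher (0.615%) and 204 lower (1.22%), 1.83% together, and against Cort 296 were higher (1.77%) and 417 lower (2.49%), 4.26% together. The interferon list had a median of 0.77 against C108, 0.51 against RU486 and 0.69 against Cort, again with C118 20 and 38 in the group. C108 had the lowest group mean of that list's score, -0.30, with libraries from -0.54 to -0.05. Antigen presentation genes had a median of 0.44 against C108. Of these 18 genes, 18 were positive and 7 were higher at an unadjusted p under 0.05 (1.55% over all genes). Rtp4, a chaperone of receptors that interferon induces, had the smallest p of those printed against C108, at 0.712 to 1.02 CPM in C108 and 1.22 to 4.74 CPM in C118 (1.51 ± 0.29, adjusted p = 0.202). Over the alternatives this fold change stayed between 0.857 and 1.67.

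Receptor targets were compared in the same way. Their median log2 fold change was -0.01 against C108, 0.11 against RU486 and -0.20 against Cort. In the Cort comparison 13 of 38 were lower (2.49% over all genes) and 0 higher (1.77%) at an unadjusted p under 0.05. Cdkn1a in C118 was below every Cort library, which had 41.9 to 80.7 CPM (-1.41 ± 0.28, adjusted p = 0.101), and within the spread of C108, at 8.88 to 38.9 CPM, while RU486 overlapped with it at 8.75 to 21 CPM (0.41 ± 0.28, adjusted p = 1). Fkbp5 in C118 was also below every Cort library, which had 159 to 179.9 CPM (-0.44 ± 0.09, adjusted p = 0.101). Dbp had 19.9 to 33.4 CPM in Cort (C118 minus Cort 0.63 ± 0.14, adjusted p = 0.173), 26.2 to 33.3 CPM in C108 (0.32 ± 0.14, adjusted p = 1) and 31.3 to 49.8 CPM in RU486 (-0.10 ± 0.14, adjusted p = 1). For Dbp the C118 range overlapped with those of all 3 ligands.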

How the data were processed

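Per the labels' protocols, RNA was extracted from dissected, frozen hippocampi with a NucleoSpin kit, and stranded mRNA libraries were sequenced from both ends on a DNBseq instrument. Raw counts per Ensembl gene were made by the authors with HTSeq 0.6.1 on build mm10, per the submitters' processing notes, whereas aligner and annotation release were not given in the sources used. The deposited table held 50686 genes, of which 310 had no symbol, and 5 summary rows, left out, which held 12.6% to 19.5% of all counts in the Vehicle and C118 libraries. Symbols came from GENCODE M21 (GRCm38).

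Groups followed the treatment labels. Counts were fitted over all 28 libraries and 6 groups with edgeR 4.0.16 in R 4.3.3 (TMM, filterByExpr at count 10 and total 15, robust quasi-likelihood fit, 22 residual degrees of freedom). The filter left 16735 genes, which held at least 99.9% of gene counts. Tests were two-sided, adjusted over all tested genes, with a threshold of 0.05. The SE was taken as |log2 fold change| over √F, and log2 CPM had 2 as its prior count. At this depth the spread between libraries (common biological coefficient of variation 0.133) limited precision more than counting did, except for genes with few counts. No pair of libraries within a group was a copy of another (lowest chi-square per degree of freedom 5.57). The procedure was tested on simulated data.

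Alternatives were DESeq2 1.42.0, limma-voom 3.58.1, another normalization, other filters, only the compared groups, marker scores or sample number as covariates, and left-out libraries. Members and gene lists were chosen with earlier results of these data known. Named were the 12 genes with the smallest p in each direction with a mean of at least 1 CPM. The rule also named 10 receptor, target and activity genes and the clock gene Dbp whatever their p, and up to 4 members per list. Further list members, such as Bhlhe41, Dusp6, Usp18 and Irf7, were added after their values were seen. Promoter sequences are RefSeq's, build GRCm38.p6, and motifs were searched on both strands.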

Additional observations from a re-analysis of the deposited data

Results flagged for a closer look

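In 216 groups of 4 or 5 libraries that were examined, 19 had a library that lay apart from the others by more than Dixon's critical value; chance alone flags about 1 in 20 such groups, and genes of a library are not independent. C118 38 gave 5 of them. Its Egr4 level was 23.5 CPM against at most 14.8 CPM in the other C118 libraries, and its Gria4 level was 51.3 CPM against at least 59.4 CPM. Its scores were -1.03 for mitochondrially encoded genes, 0.145 for CaM kinases and inhibitors and 0.153 for heat shock and ER chaperones.

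Of the other C118 libraries, C118 20 stood apart for Irf7 (6.84 CPM), C118 7 for Hlf (167 CPM) and C118 13 for the choroid plexus score (1.28). C118 33 stood apart for Stac (3.96 CPM), Pmaip1 (2.64 CPM) and the score of cell cycle arrest and p53 targets (-0.043).

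In the Vehicle group, Vehicle 16 stood apart for Vipr2 (11.3 CPM), Tnnt1 (20.3 CPM) and Trp53inp1 (25.9 CPM). Vehicle 29 stood apart for Pdk4 (23.9 CPM) and for the scores of GABA-A receptor subunits (0.164) and dentate gyrus markers (-0.533). Vehicle 23 stood apart for Arc (99.5 CPM) and for the score of calcium channels and sensors (-0.0359). No explanation of these libraries was tested.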

How the results depend on the processing

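Counts of called genes between C118 and Vehicle (0 in the fit reported) were 2 with RLE normalization, 1 without a filter, 2 with a stricter filter, 54 with DESeq2 and 1 with only the 2 groups; leaving out 1 library at a time gave 0 to 214. Of these fits, those without Vehicle 3 (24) and without Vehicle 23 (214) made calls and the other 7 made 0. Against C108, DESeq2 called 1 gene and left-out libraries gave 0 to 8 (8 without C118 33 and 1 without C118 13). Against Cort, DESeq2 called 15, the fit to only the 2 groups called 1, and left-out libraries gave 0 to 3 (3 without C118 33, 3 without C118 38, 1 without Cort 11). Against RU486 every alternative run gave 0. The cause of these shifts was not tested. Signs turned for Sgk1 (0.022 with the tissue scores, -0.144 to 0.0658 with 1 library left out, the highest without Vehicle 3, and 0.151 without Vehicle 3 and 16), Tnnt1 (0.0546 with the scores), Nr3c1 (-0.00306 to 0.101 with 1 library left out, the lowest without C118 7), Nr3c2 (-0.115) and Wfs1 (-0.052) without Vehicle 16 and 29, and Ifit1 (-0.134) without C118 20 and 38. Without that pair Ifit3b (-0.186) and Ifit3 (-0.228) also turned against RU486. Of the other values of single genes and list medians, 2425 counted as unchanged. For a single gene this meant the same direction and the same side of the threshold. For a list median it meant a shift smaller than the spread between libraries, whatever its sign. Another 86 values passed the threshold only in the alternative, and 18 list medians moved by more than the spread between libraries. With 4 or 5 libraries a group, the edgeR test adjusted over all genes did not call Efna5, at 5.64 SE, or Dbp, at 5.05 SE. Genes at smaller ratios were not called in that fit either, so differences of their size may have gone undetected. No paired analysis was possible because the numbers in the titles are unique to a library, so that the groups share none.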
